A study of Mus musculus with 13 samples.

Results

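Tauroursodeoxycholic acid (TUDCA), a taurine conjugate of a hydrophilic bile acid that is used as a chemical chaperone against endoplasmic reticulum (ER) stress, was compared with vehicle in mouse hearts that had no pressure overload. TUDCA-Sham hearts (3) were set against Veh-Sham hearts (3), as their sample titles group them, out of 13 hearts on bead arrays. All 8336 genes that had a symbol and a measured probe were included, which are all such genes of the series, each read from its brightest probe. The mice were C57BL/6 males aged 8 to 10 weeks. Sham mice had the surgery without constriction, and received TUDCA in water or water alone daily by oral gavage from the day of surgery until the hearts were taken 1 week later. The other hearts, TUDCA-TAC (4) and Veh-TAC (3), came from mice with transverse aortic constriction (TAC), which loads the left ventricle, and were otherwise handled in the same way. Each heart is labelled as a separate biological replicate. The clock time at which hearts were taken is not given in the sources used here.

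No gene differed between TUDCA-Sham and Veh-Sham hearts after adjustment over all 8336 genes (0%). The genes that stood furthest apart before adjustment included a group of the circadian clock. In most cells the clock runs as a feedback loop. The activators encoded by Arntl (BMAL1) and Clock bind E-boxes in the promoters of the repressor genes Per1, Per2 and Ciart and of the output genes Dbp and Tef, and the repressors then shut the activators down. The receptors REV-ERB (Nr1d1, Nr1d2) and ROR (Rora) set the level of Arntl itself, so that in heart as in other tissues Arntl peaks roughly opposite to Dbp and the Per genes over the day. ER stress, by contrast, is sensed by PERK (Eif2ak3), IRE1 and ATF6, which raise chaperones such as GRP78 (Hspa5) and GRP94 (Hsp90b1) and, when it persists, CHOP (Ddit3).

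The proximal promoters of the clock genes that hold the canonical E-box are shown here because several clock genes lead the comparison, though not all those shown do. RefSeq windows of 250 bases before the transcription start (GRCm38.p6) matched 14 of the 17 clock genes measured. No window was found for Per2, Bhlhe40 and Csnk1d, so these were not searched. The E-box CACGTG, which reads the same on both strands, was found in windows of 3 of them, Ciart, Per1 and Tef, against 6.86% of all 27025 genes with such windows (6.02% of 32851 windows). It is written in capitals below, 5′ to 3′ on the strand of the gene.
Ciart, chr3:95882229-95882478, minus strand: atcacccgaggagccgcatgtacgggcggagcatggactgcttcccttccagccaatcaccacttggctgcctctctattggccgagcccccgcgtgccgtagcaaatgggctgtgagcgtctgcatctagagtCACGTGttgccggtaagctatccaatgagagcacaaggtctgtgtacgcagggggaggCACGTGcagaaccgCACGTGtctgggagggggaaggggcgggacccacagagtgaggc
Per1, chr11:69098699-69098948, plus strand: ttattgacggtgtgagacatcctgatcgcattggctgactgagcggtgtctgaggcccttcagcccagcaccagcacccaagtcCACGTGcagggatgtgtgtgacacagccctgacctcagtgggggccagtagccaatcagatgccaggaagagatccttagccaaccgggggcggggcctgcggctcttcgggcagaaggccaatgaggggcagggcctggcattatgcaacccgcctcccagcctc
Tef, chr15:81802423-81802672, plus strand: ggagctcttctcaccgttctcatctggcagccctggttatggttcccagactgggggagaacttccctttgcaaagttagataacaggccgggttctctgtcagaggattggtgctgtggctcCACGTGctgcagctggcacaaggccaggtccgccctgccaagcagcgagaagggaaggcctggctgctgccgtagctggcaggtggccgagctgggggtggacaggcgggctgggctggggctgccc
Tef, chr15:81811164-81811413, plus strand: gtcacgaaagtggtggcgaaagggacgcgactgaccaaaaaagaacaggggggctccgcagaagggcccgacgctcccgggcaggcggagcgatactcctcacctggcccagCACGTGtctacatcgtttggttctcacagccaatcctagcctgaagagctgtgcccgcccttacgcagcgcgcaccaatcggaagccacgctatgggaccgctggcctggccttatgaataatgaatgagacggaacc
The Ciart promoter held 3 E-boxes, which began 116, 58 and 44 bases before the start. Of 2 Per1 windows, the window shown held 1 E-box, 166 bases before the start, and the other held 0. The windows of the 2 Tef starts held 1 each, 127 and 138 bases before them. The windows of Dbp and Arntl held 0, and the part of E-boxes in the values below was not tested. The D-box TTATGTAA, the target of DBP and TEF (TTACATAA on the other strand), was in the windows of 0 of the 14 genes and of 0.977% of all genes. The REV-ERB and ROR element was searched on both strands in the form TAGGTCA, which was in a window of 1 of the 14, Nfil3, and of 2.55% of all genes. A second form, TGGGTCA, was in the windows of 0 of the 14 genes and of 3.73% of all genes.

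The 6 sham arrays detected between 11647 and 12358 probes each, and their log2 intensities correlated at 0.987 to 0.990 among TUDCA-Sham hearts, at 0.987 to 0.992 among Veh-Sham hearts and at 0.985 to 0.993 between the groups. The raw intensity of the 25th percentile, a measure of array background, was 259 on the array of TUDCA-Sham 6 and 303 to 315 on the other 5 sham arrays. In the TAC groups, TUDCA-TAC 1 stood apart, with 164 against 262 to 310 on the other TAC arrays, and the TAC results below are given with and without it. Markers of cardiomyocytes showed that the samples were heart, with 14 of 15 markers measured and a summed linear intensity of 649507 to 682050 in TUDCA-Sham hearts, against 647536 to 682574 in Veh-Sham hearts. In RNA from whole hearts, fewer cells of a type and less RNA per cell cannot be told apart.

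The comparison asks what a week of TUDCA did to the transcripts of an unloaded heart. The smallest adjusted p was 0.554, for Mib1, followed by 0.833 for Srrm4, and the adjusted p of every other gene was at least 0.9996 (limma, Benjamini-Hochberg). At an unadjusted p under 0.05, 203 genes (2.44%) differed, 114 higher (1.37%) and 89 lower (1.07%) in TUDCA-Sham hearts. The threshold for differentially expressed genes (DEGs), a change over 1.5-fold with an unadjusted p under 0.05, was passed by 36 higher genes (0.432%) and 22 lower genes (0.264%). With median scaling in place of quantile normalization, which moved the median of all genes to 0.05, the split was 40 higher and 9 lower genes. In the authors' normalized table, and likewise without background correction, only 4 higher and 2 lower genes passed the threshold. All 3 TUDCA-Sham hearts lay above all 3 Veh-Sham hearts for 315 genes (3.78%) and below them for 300 genes (3.6%). Of the DEGs, 24 of the 36 higher genes and 16 of the 22 lower genes had groups that did not overlap, and 18 and 10 of them were detected on all 6 arrays.

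The size of effect that these hearts could show is given by the intervals. The standard error of the log2 fold change had a median of 0.17, and 10th and 90th percentiles of 0.11 and 0.28. For 5782 genes (69.4%) the 95% confidence interval lay inside 1.5-fold in either direction, and for 7957 genes (95.5%) it lay inside 2-fold. The median absolute log2 difference was 0.09 for TUDCA-Sham against Veh-Sham, and 0.22 for TUDCA-TAC against Veh-TAC, where 1376 genes (16.5%) passed an adjusted p of 0.05 (918 without TUDCA-TAC 1).

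**Figure D1:**
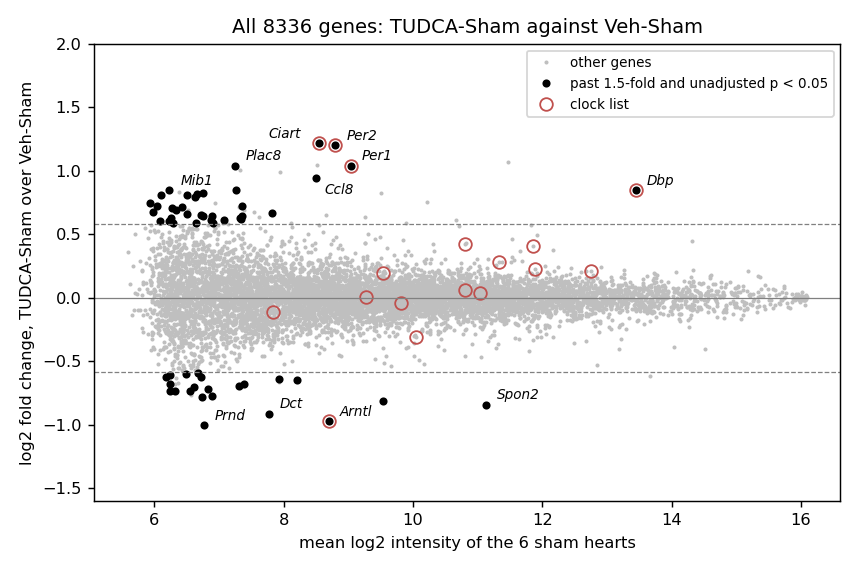
Each point is 1 of 8336 genes, with the mean log2 intensity of the 6 sham hearts on the x axis and the log2 fold change of TUDCA-Sham over Veh-Sham on the y axis (dashed lines, 1.5-fold). Black points are the 36 higher and 22 lower genes past the DEG threshold and open red circles are the 17 clock genes, of which Dbp, Ciart, Per1 and Per2 lie above the upper line and Arntl below the lower one.

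Of 24 genes listed for the circadian clock and its output, 17 were measured, and 6 were higher and 1 was lower in TUDCA-Sham hearts at an unadjusted p under 0.05, against 1.37% and 1.07% of all genes. The DEG threshold was passed by 4 higher genes and 1 lower gene. The median log2 fold change of the 17 was 0.21, against 0.0015 over all genes. Their summed linear intensity was 40713 to 50759 in TUDCA-Sham hearts, against 31577 to 39838 in Veh-Sham hearts, without overlap. Bright genes weigh most in such a sum, and without Dbp, the brightest of the 17, the groups overlapped. None of the 17 passed the adjusted threshold.

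Dbp encodes a transcription factor of the PAR bZIP family that follows the clock with one of its largest swings. Its log2 intensity was 14.01, 13.69 and 13.90 in TUDCA-Sham 1, 4 and 6, against 12.57, 12.99 and 13.50 in Veh-Sham 3, 4 and 6. All 3 TUDCA-Sham hearts were above the highest Veh-Sham heart, by 0.19 at the closest, but Veh-Sham hearts covered 0.92 among themselves. Dbp was 1.80-fold higher (log2 0.85 ± 0.22 SE, interval 0.37 to 1.32, unadjusted p = 0.00221), and it kept its place past the DEG threshold with each of the 6 sham hearts left out in turn.

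Ciart, which encodes a repressor of the activator complex and whose promoter carries 3 E-boxes, had log2 intensities of 9.67, 8.73 and 9.05 in TUDCA-Sham hearts, against 7.08, 8.31 and 8.42 in Veh-Sham hearts. The groups did not overlap, and Veh-Sham 3 was lowest by more than 1 log2 unit. The difference was the largest positive one of all genes tested, at 1.22 ± 0.35 (interval 0.46 to 1.98, unadjusted p = 0.00443), and a second probe gave 1.45. Ciart too stayed past the DEG threshold with each sham heart left out.

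The period genes encode the core repressors of the loop. Per2 read 10.10, 8.98 and 9.13 in TUDCA-Sham hearts, against 7.65, 7.99 and 8.97 in Veh-Sham hearts. These groups were separated by only 0.01 between TUDCA-Sham 4 and Veh-Sham 6. Per1 read 10.25, 9.09 and 9.34 in TUDCA-Sham hearts, against 7.90, 8.52 and 9.14 in Veh-Sham hearts, where Veh-Sham 6 lay above TUDCA-Sham 4. The log2 differences were 1.20 ± 0.42 for Per2 (unadjusted p = 0.0138) and 1.04 ± 0.35 for Per1 (unadjusted p = 0.0117), and second probes gave 1.05 and 0.87. For both genes TUDCA-Sham 1 was the highest and Veh-Sham 3 the lowest heart. Without TUDCA-Sham 1 the differences were 0.85 (unadjusted p = 0.0718) and 0.69 (unadjusted p = 0.0651), and without Veh-Sham 3 they were 0.92 (unadjusted p = 0.0648) and 0.73 (unadjusted p = 0.0634).

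Tef, a PAR bZIP relative of Dbp, was at 11.19, 10.81 and 11.04 in TUDCA-Sham hearts, against 10.43, 10.69 and 10.63 in Veh-Sham hearts. The hearts did not overlap, and the difference was 0.43 ± 0.15 (unadjusted p = 0.0164), but a dimmer second probe gave 0.10. Bhlhe40, which encodes an E-box repressor, was at 12.17, 11.91 and 12.10 in TUDCA-Sham hearts, against 11.61, 11.39 and 11.95 in Veh-Sham hearts, with a difference of 0.41 ± 0.16 (unadjusted p = 0.0217). Veh-Sham 6 overlapped with TUDCA-Sham 4. Tef and Bhlhe40 were below the 1.5-fold threshold.

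Arntl, the activator gene, ran the other way. Its log2 intensity was 7.81, 8.64 and 8.21 in TUDCA-Sham hearts, against 9.72, 9.17 and 8.69 in Veh-Sham hearts. All TUDCA-Sham hearts were below the Veh-Sham hearts, with a gap of 0.05 between TUDCA-Sham 4 and Veh-Sham 6. The difference was -0.97 ± 0.34 (interval -1.72 to -0.23, unadjusted p = 0.0142). It was -0.77 without TUDCA-Sham 1 (unadjusted p = 0.0637) and -0.71 without Veh-Sham 3 (unadjusted p = 0.0719).

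The remaining 10 measured clock genes had differences between -0.31 and 0.28 and did not pass an unadjusted p of 0.05. Nr1d2 and Nr1d1, the REV-ERB genes, had differences of 0.28 (interval -0.02 to 0.58) and 0.20 (interval -0.37 to 0.76). Nfil3, a repressor of the D-box, had -0.31 (interval -0.80 to 0.18) and Clock, the partner of BMAL1, had 0.04 (interval -0.28 to 0.35). The intervals of Nr1d1, Nfil3, Usp2 and Cry2, a repressor that acts with the period proteins, reached past 1.5-fold on 1 side, and those of the other 6 did not.

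The hearts were in 1 order for 4 of the 17 clock genes, which were singled out after their values were seen. From low to high, Dbp, Ciart and Per2 ran through Veh-Sham 3, Veh-Sham 4, Veh-Sham 6, TUDCA-Sham 4, TUDCA-Sham 6 and TUDCA-Sham 1, and Arntl ran through the same hearts from high to low. The other 13 had other orders, of which that of Per1 differed only by an exchange of Veh-Sham 6 and TUDCA-Sham 4, while Veh-Sham 4 lay above Veh-Sham 6 for Tef and was the lowest heart for Bhlhe40 and Nr1d1. The spread within a group was as large as the difference between groups for several of these genes, with ranges among Veh-Sham hearts of 1.34 for Ciart, 1.32 for Per2, 1.23 for Per1 and 1.03 for Arntl. As a count, without TUDCA-Sham 1 or without Veh-Sham 3 the clock list had 2 higher genes and 0 lower genes at an unadjusted p under 0.05. Because the time of day at which each heart was taken is not given in the sources used here, a difference in that time between hearts cannot be told apart from TUDCA in these values.

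**Figure D2:**
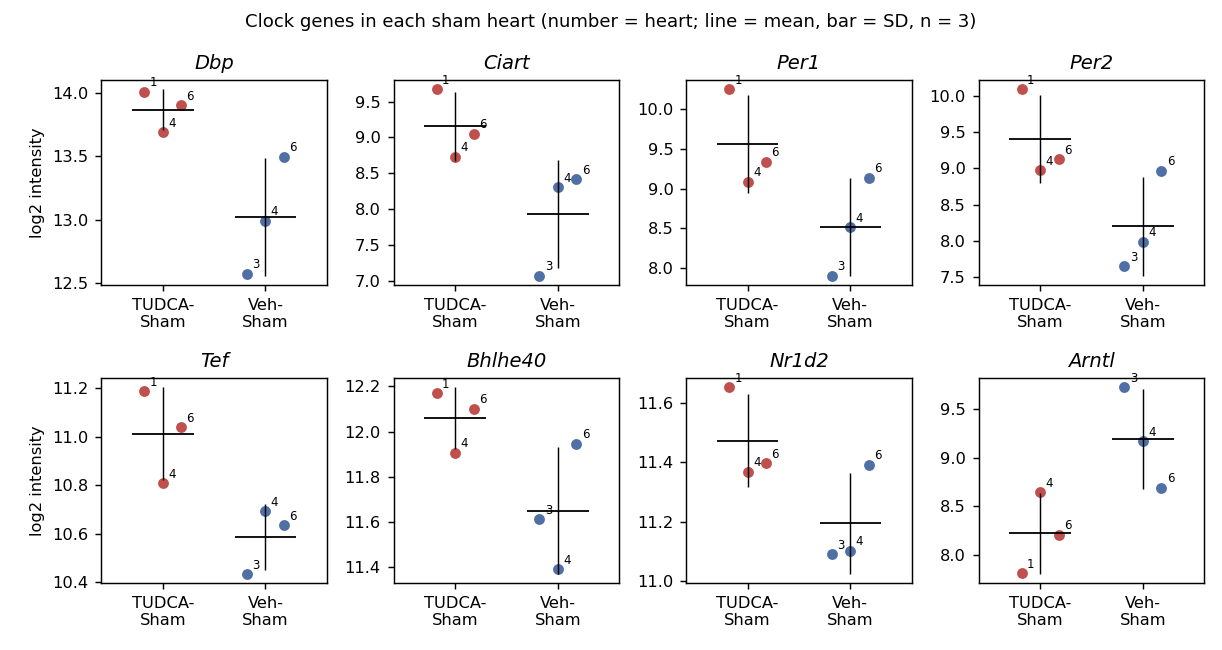
The log2 intensity of 8 clock genes is drawn for every sham heart, TUDCA-Sham (red) left of Veh-Sham (blue), each point marked with its heart number, the line at the mean and the bar over 1 SD on each side (n = 3). TUDCA-Sham 1 is highest and Veh-Sham 3 lowest for Dbp, Ciart, Per1 and Per2, and the order is turned round for Arntl.

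TUDCA-TAC against Veh-TAC shares no heart with the sham comparison, so that the same genes could be read in other animals. There, 4 clock genes rose and 1 fell at an adjusted p under 0.05 (limma), against 8.17% of all genes that rose and 8.34% that fell. Without TUDCA-TAC 1, 3 rose and 1 fell. Dbp read 14.41, 13.81, 14.10 and 13.73 in TUDCA-TAC 1, 2, 3 and 4, against 13.10, 13.16 and 12.98 in Veh-TAC 3, 8 and 9, a log2 rise of 0.93 (adjusted p = 0.0119). Arntl read 7.24, 7.79, 6.84 and 8.23 in TUDCA-TAC hearts, against 8.81, 9.02 and 9.00 in Veh-TAC hearts, and fell by 1.42 on the log2 scale (adjusted p = 0.0127). All TUDCA-TAC hearts lay on 1 side of all Veh-TAC hearts for both genes. Without TUDCA-TAC 1 the values were 0.80 (adjusted p = 0.0282) for Dbp and -1.33 (adjusted p = 0.0332) for Arntl. The time of day is not given for the TAC hearts either. A difference in that time between hearts cannot be told apart from TUDCA in these values too.

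The other 3 clock genes that rose in TAC hearts were not among those that stood apart in sham hearts. Nr1d1 rose by 1.07 in TUDCA-TAC hearts (adjusted p = 0.0131), against 0.20 in sham hearts. Usp2, a deubiquitinase gene driven by the clock, rose by 0.81 (adjusted p = 0.00915), against 0.22 in sham hearts. Without TUDCA-TAC 1 the rises were 0.85 (adjusted p = 0.0207) for Nr1d1 and 0.67 (adjusted p = 0.0148) for Usp2. Cry2 rose by 0.71 (adjusted p = 0.0418), which was 0.58 (adjusted p = 0.101) without TUDCA-TAC 1. In turn, Per1 and Per2 had -0.08 and 0.37 in TAC hearts, where neither passed the test, and Ciart had 0.74 (adjusted p = 0.144). Without TUDCA-TAC 1 they had -0.16, 0.27 and 0.71, and none passed. The difference between the responses of TAC and sham hearts was tested directly, and no clock gene passed it, with an adjusted p of 0.913 for Dbp, 0.648 for Arntl and 0.198 for Nr1d1. This does not show that the responses were alike.

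**Figure D3:**
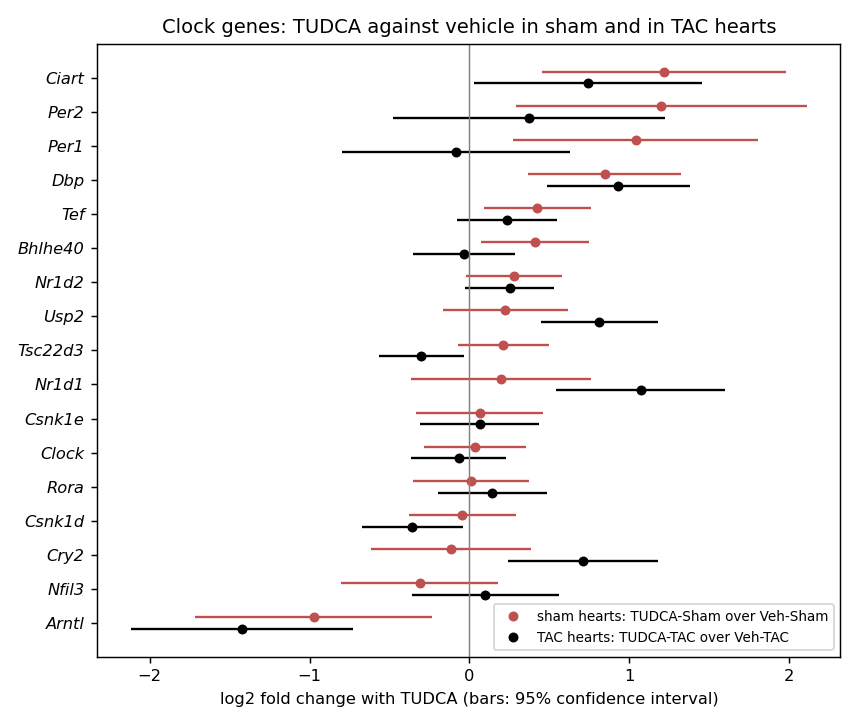
For the 17 clock genes, the log2 fold change with TUDCA (x axis) is drawn with its 95% confidence interval in sham hearts (red) and below it in TAC hearts (black). Dbp lies to the right of 0 and Arntl to the left of 0 in both, while Per1 is at 1.04 in sham hearts and at -0.08 in TAC hearts.

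Outside the clock, the gene with the smallest p was dim. Mib1, which encodes a ubiquitin ligase that activates Notch ligands, read 6.62, 6.65 and 6.70 in TUDCA-Sham hearts, against 5.87, 6.04 and 5.53 in Veh-Sham hearts. It was detected on all TUDCA-Sham arrays and on no Veh-Sham array. Its difference of 0.85 had the smallest p of all genes (unadjusted p = 6.64e-05, adjusted p = 0.554). Over the alternatives of processing and of hearts in the fit, that difference ran from 0.21 to 0.96. Since the Veh-Sham side was not detected, the ratio of the measured means is given as a bound, at least 1.43-fold. Such a bound carries no sampling error. Arhgap15, which encodes an inhibitor of the GTPase Rac, was also detected on all TUDCA-Sham arrays and on no Veh-Sham array, and was at least 1.29-fold higher. Ssh3, of the cofilin phosphatases, was detected on 2 TUDCA-Sham arrays and no Veh-Sham array, and was at least 1.14-fold higher, with a fitted difference that was under 1.5-fold without TUDCA-Sham 6 or without Veh-Sham 3.

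Ccl8, a chemokine gene expressed by macrophages, was detected in all 6 hearts at 8.36, 9.46 and 9.09 in TUDCA-Sham hearts, against 7.94, 8.06 and 8.07 in Veh-Sham hearts. The Veh-Sham hearts were within 0.13 of each other and below all TUDCA-Sham hearts. The difference was 0.94 ± 0.24 (1.92-fold, unadjusted p = 0.00209). Btk, a kinase of B and myeloid cells, read 7.03, 7.42 and 7.07 in TUDCA-Sham hearts, against 6.41, 6.17 and 6.46 in Veh-Sham hearts, a difference of 0.83 ± 0.20 (unadjusted p = 0.00115). Plac8 read 7.60, 8.35 and 7.36 in TUDCA-Sham hearts, against 6.63, 6.72 and 6.84 in Veh-Sham hearts, and its difference of 1.04 was 0.75 (unadjusted p = 0.0851) without TUDCA-Sham 4. Prr15 lay between 7.06 and 7.09 in TUDCA-Sham hearts, against 6.20 to 6.29 in Veh-Sham hearts (0.82, unadjusted p = 0.00315). The size of these differences depended on the alternative. They ran from 0.56 to 1.24 for Ccl8, 0.25 to 0.93 for Btk, 0.40 to 1.25 for Plac8 and 0.24 to 0.84 for Prr15.

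Of the other higher genes with separate groups, Cyfip2, a subunit of the actin regulating WAVE complex, had a difference of 0.85 that was 0.53 (unadjusted p = 0.0269) without Veh-Sham 4. Siae, a sialic acid esterase gene, had 0.80, Pigw, of glycosylphosphatidylinositol anchor synthesis, 0.71, and Mrgbp, of a histone acetylase complex, 0.69. Pigw and Mrgbp were detected on 1 Veh-Sham array each. Klk1b26 had 0.72, and belongs to a kallikrein family of near-identical genes whose transcripts the probe may share. Each of these 4 lost the DEG threshold on leaving out 1 heart or more. That heart was Veh-Sham 3 for Siae (0.67), TUDCA-Sham 1 (0.56) or Veh-Sham 4 (0.55) for Pigw, TUDCA-Sham 1 or Veh-Sham 6 (both 0.54) for Mrgbp, and Veh-Sham 4 for Klk1b26 (0.47).

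Among the lower genes, Prnd, which encodes the prion-like protein doppel, read 6.37, 6.54 and 5.88 in TUDCA-Sham hearts, against 7.84, 7.23 and 6.72 in Veh-Sham hearts. TUDCA-Sham hearts held 0.498 times the Veh-Sham level, the lowest ratio of all genes (log2 interval -1.62 to -0.39, unadjusted p = 0.00378). Prnd was dim, and was detected on 2 TUDCA-Sham arrays and on 3 Veh-Sham arrays. Dct, an enzyme gene of melanin synthesis, read 7.10, 7.28 and 7.57 in TUDCA-Sham hearts, against 8.23, 8.28 and 8.18 in Veh-Sham hearts (-0.91 ± 0.29, unadjusted p = 0.00727). The Veh-Sham hearts were close together for Dct and far apart for Prnd. Srrm4, a splicing regulator known from neurons, read 6.07, 6.31 and 6.67 in TUDCA-Sham hearts, against 7.28, 7.08 and 7.03 in Veh-Sham hearts (-0.78 ± 0.15, unadjusted p = 2e-04, adjusted p = 0.833). These 3 genes and the unannotated AI987944 (-0.74, unadjusted p = 0.00385) stayed past the DEG threshold with each sham heart left out. Their size depended on the alternative. It ran from -1.28 to -0.32 for Prnd, -1.04 to -0.41 for Dct, -0.94 to -0.23 for Srrm4 and -0.84 to -0.21 for AI987944.

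Other lower genes with separate groups lost their call on leaving out a heart. Spon2, a secreted matrix protein gene, read 10.10, 11.16 and 10.88 in TUDCA-Sham hearts, against 11.97, 11.49 and 11.22 in Veh-Sham hearts (-0.84 ± 0.30, unadjusted p = 0.0151). Itga6, a laminin receptor subunit, had -0.78, and Adamts5, an aggrecanase gene, had -0.65. Spon2 had -0.54 (unadjusted p = 0.0832) without TUDCA-Sham 1 and -0.64 (unadjusted p = 0.0712) without Veh-Sham 3, Itga6 had -0.57 (unadjusted p = 0.0939) and -0.57 (unadjusted p = 0.0935) without the same hearts, and Adamts5 had -0.45 (unadjusted p = 0.0855) without TUDCA-Sham 4 and -0.49 (unadjusted p = 0.0774) without Veh-Sham 6.

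Micall2 and Myo1g, a myosin of blood cells, were detected in Veh-Sham hearts and on no TUDCA-Sham array. By their measured means they were at least 1.38-fold and at least 1.3-fold lower. The log2 intervals of their fitted differences were -1.02 to -0.34 and -0.93 to -0.32. A second Micall2 probe gave -0.28. The fitted difference of Micall2 was -0.57 without Veh-Sham 4, and that of Myo1g was -0.58 without TUDCA-Sham 4, -0.54 without Veh-Sham 3 and -0.57 without Veh-Sham 6, all under 1.5-fold. Cep85, of the centrosome, read 7.72, 7.37 and 7.75 in TUDCA-Sham hearts, against 8.17, 8.42 and 8.16 in Veh-Sham hearts (-0.64 ± 0.15, unadjusted p = 0.000989). Angptl4, which encodes an inhibitor of lipoprotein lipase and is induced by fatty acids, read 8.81, 8.68 and 9.89 in TUDCA-Sham hearts, against 9.88, 9.72 and 10.23 in Veh-Sham hearts, with TUDCA-Sham 6 inside the Veh-Sham range (-0.82, unadjusted p = 0.0495). The Angptl4 call was lost without any 1 of 5 hearts, and its value lay between -0.93 and -0.59 there. Cep85 was below 1.5-fold without TUDCA-Sham 4 (-0.51) or without Veh-Sham 4 (-0.55).

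**Figure D4:**
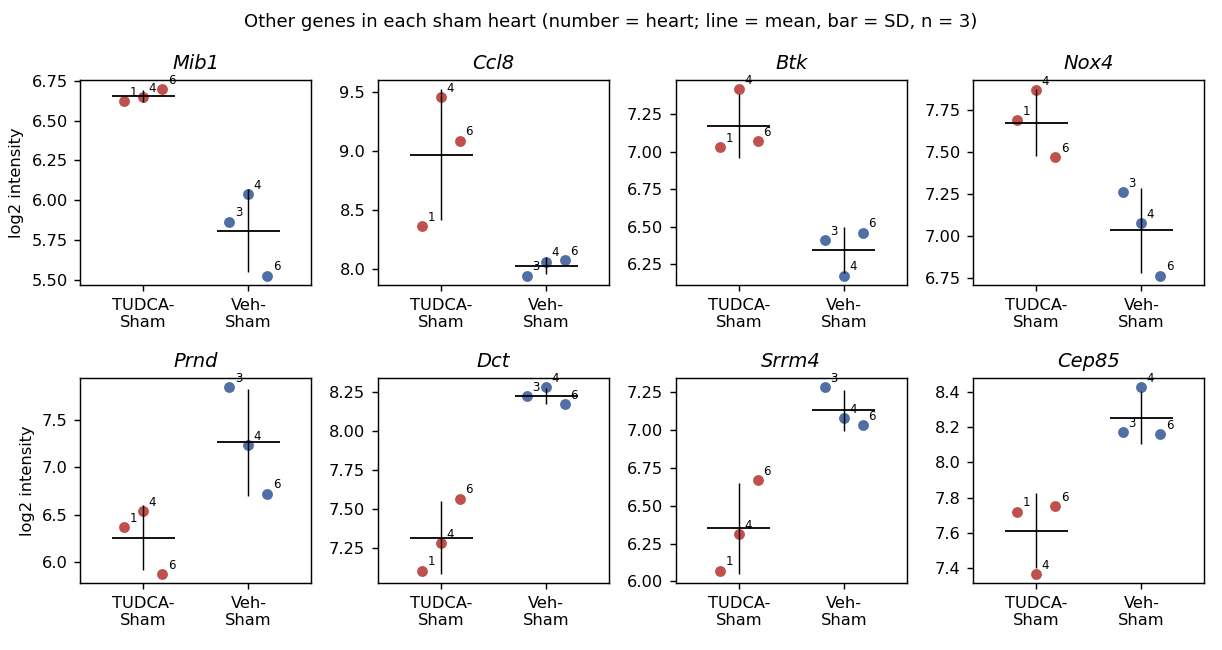
The log2 intensity of 8 genes outside the clock is drawn for every sham heart, TUDCA-Sham (red) left of Veh-Sham (blue), with heart numbers, the mean as a line and 1 SD as a bar (n = 3). For Mib1, Ccl8, Btk and Nox4 all TUDCA-Sham hearts lie above the Veh-Sham hearts, and for Prnd, Dct, Srrm4 and Cep85 all lie below them.

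ER chaperones and folding enzymes, the proteins of the folding machinery that chemical chaperones assist, were measured for 28 of 40 listed genes, and 0 were higher and 0 lower at an unadjusted p under 0.05. Their median log2 fold change was 0.01, all 28 lay between -0.23 and 0.26, and the interval of 21 of them lay inside 1.5-fold. Hspa5 (GRP78) read 8.90, 8.98 and 8.48 in TUDCA-Sham hearts, against 9.07, 8.20 and 8.70 in Veh-Sham hearts, and its difference of 0.13 had a wide interval of -0.66 to 0.92. Hsp90b1 (GRP94) read 13.80, 13.37 and 13.49 in TUDCA-Sham hearts, against 13.54, 13.21 and 13.69 in Veh-Sham hearts (0.07, interval -0.32 to 0.47). The hearts of both groups overlapped throughout for these 2 genes. Calr, a calcium-binding chaperone of the ER lumen, had -0.23 (interval -0.62 to 0.16).

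Genes of the unfolded protein response and the integrated stress response were measured for 27 of 40 listed, again with 0 higher and 0 lower, a median of 0.04, and 14 intervals inside 1.5-fold. The sensor genes of IRE1 (Ern1) and ATF6 (Atf6) were not among those measured. Ddit3 (CHOP) read 8.24, 8.53 and 8.19 in TUDCA-Sham hearts, against 8.38, 8.44 and 8.15 in Veh-Sham hearts (0.00, interval -0.55 to 0.54). Xbp1, the substrate of IRE1, had -0.03 (interval -0.31 to 0.26). Atf4, the main effector of PERK, read 8.79, 8.70 and 8.63 in TUDCA-Sham hearts, against 8.61, 8.17 and 8.43 in Veh-Sham hearts, with groups that did not overlap and a difference of 0.30 (interval -0.19 to 0.79) that did not pass the test. Eif2ak3 (PERK) had 0.36 (interval -0.28 to 0.99), with Veh-Sham 4 lowest. In TAC hearts the chaperone list had 3 of 28 genes that fell at an adjusted p under 0.05 (Derl2, P4hb and Txndc5), near the 8.34% of all genes, and 0 that rose. Without TUDCA-TAC 1 it was P4hb alone.

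**Figure D5:**
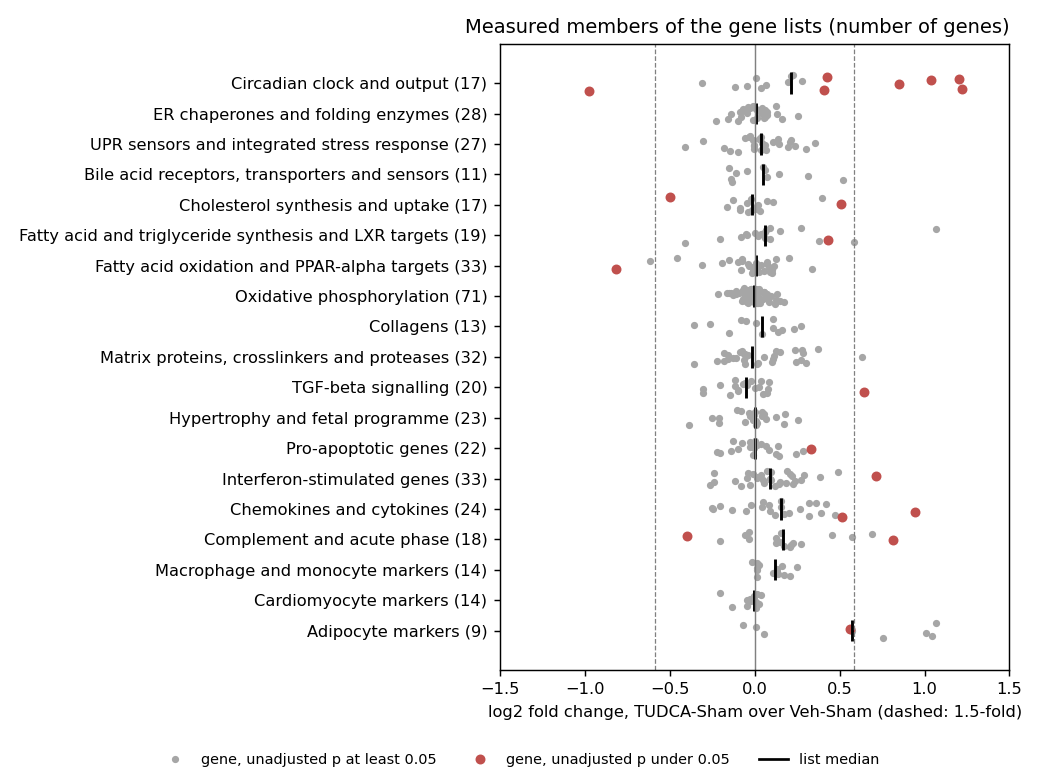
Every measured member of 19 gene lists is drawn at its log2 fold change of TUDCA-Sham over Veh-Sham (x axis, dashed lines at 1.5-fold), in red where its unadjusted p was under 0.05, with the list median as a bar and the number of genes in brackets. The clock list at the top has 7 red points, and the ER chaperones have 0.

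Of 29 listed bile acid receptors, transporters and enzymes, 11 were measured, and 0 were higher and 0 lower (median 0.05). Abcc3, a basolateral exporter of bile acid conjugates, had 0.52 (interval -0.12 to 1.17) and Cyp7b1, an oxysterol hydroxylase gene, 0.31 (interval -0.11 to 0.74), both with groups that did not overlap. S1pr2, a receptor for conjugated bile acids, had -0.05 (interval -0.37 to 0.28). The list's 2 genes that rose in TAC hearts, Abcb4 by 0.43 and Chrm2 by 0.75 (0.51 and 0.62 without TUDCA-TAC 1), had -0.14 each in sham hearts. Of all genes, 8.17% rose there. Another 2 of the 11 fell in TAC hearts at an adjusted p under 0.05, against 8.34% of all genes. Without TUDCA-TAC 1, 1 fell, against 5.54% of all genes.

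Among 17 measured genes of cholesterol synthesis and uptake, Mvd, a mevalonate pathway enzyme, was higher (6.02, 6.30 and 6.81 in TUDCA-Sham hearts, against 6.13, 5.88 and 5.59 in Veh-Sham hearts, 0.51, unadjusted p = 0.0215) and Stard4, a sterol carrier, lower (7.73, 7.88 and 8.02 in TUDCA-Sham hearts, against 8.53, 8.37 and 8.24 in Veh-Sham hearts, -0.50, unadjusted p = 0.0033). The hearts overlapped for Mvd and not for Stard4, and the median of the list was -0.02. Of all genes, 1.37% were higher and 1.07% lower in sham hearts at an unadjusted p under 0.05. In TAC hearts Mvd rose by 0.77 (adjusted p = 0.0151, and 0.72 with adjusted p = 0.0389 without TUDCA-TAC 1). Of 19 genes of fatty acid and triglyceride synthesis, Agpat2, which makes phosphatidic acid, had 0.43 (unadjusted p = 0.015) and rose by 0.56 in TAC hearts (adjusted p = 0.021, and 0.54 with adjusted p = 0.0478 without TUDCA-TAC 1). Of 33 genes of fatty acid oxidation and PPAR-alpha, 17 rose in TAC hearts at an adjusted p under 0.05, against 8.17% of all genes, and the median there was 0.59. Without TUDCA-TAC 1, 14 rose, against 5.47% of all genes, with a median of 0.50. In sham hearts the median of those 33 was 0.01, with Angptl4 alone at an unadjusted p under 0.05. Oxidative phosphorylation had 0 of 71 genes past that p, and 62 intervals inside 1.5-fold.

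None of 13 collagens and none of 32 matrix proteins, crosslinkers and proteases passed an unadjusted p of 0.05 in sham hearts, and their medians were 0.05 and -0.01. In TAC hearts 5 of the 13 and 16 of the 32 fell at an adjusted p under 0.05, against 8.34% of all genes. Without TUDCA-TAC 1 these were 3 and 13, against 5.54% of all genes. Col3a1 read 9.74, 10.96 and 9.85 in TUDCA-Sham hearts, against 10.23, 9.79 and 9.71 in Veh-Sham hearts (0.27, interval -0.34 to 0.88), with TUDCA-Sham 4 highest. Of the hypertrophy and fetal programme, 0 of 23 genes passed, with Nppb at 0.04 (interval -0.69 to 0.77) and Acta1 at -0.39 (interval -1.19 to 0.42). Nppa was within 10% of the brightest intensity on all 6 arrays, so that no fold is given.

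Nox4, an NADPH oxidase gene that TGF-beta induces, was the 1 gene of 20 measured for TGF-beta signalling at an unadjusted p under 0.05. Of all genes, 1.37% were higher at that p. Nox4 read 7.69, 7.87 and 7.47 in TUDCA-Sham hearts, against 7.26, 7.08 and 6.77 in Veh-Sham hearts, and its groups did not overlap. The difference was 0.64 ± 0.23 (1.56-fold, unadjusted p = 0.0158). Nox4 had 0.55 (unadjusted p = 0.0587) without TUDCA-Sham 4 and 0.51 (unadjusted p = 0.0691) without Veh-Sham 6. Smad3, a transducer of TGF-beta, was the gene of the list with all TUDCA-Sham hearts below the Veh-Sham hearts, at 8.54, 8.14 and 8.34 in TUDCA-Sham hearts, against 8.57, 8.81 and 8.56 in Veh-Sham hearts (-0.31, unadjusted p = 0.0752). In TAC hearts the direction of Nox4 was the opposite. It read 8.23, 7.88, 7.48 and 7.93 in TUDCA-TAC 1, 2, 3 and 4, against 9.46, 10.31 and 9.81 in Veh-TAC hearts, and fell by 1.98 on the log2 scale (adjusted p = 0.000972). The responses of TAC and sham hearts differed by -2.62 (adjusted p = 0.0118). Without TUDCA-TAC 1, Nox4 fell by 2.10 on the log2 scale in TAC hearts (adjusted p = 0.00147), and the difference was -2.74 (adjusted p = 0.0163).

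Immune genes were sorted by ligands, complement and interferon targets. At an unadjusted p under 0.05, 1.37% of all genes were higher and 1.07% lower, shares that apply to each list here. Of 24 chemokines and cytokines, Ccl8 and Ccl11 were higher and 0 were lower at that p, with a median of 0.16. Ccl11 (eotaxin) read 8.78, 9.03 and 8.78 in TUDCA-Sham hearts, against 8.21, 8.44 and 8.39 in Veh-Sham hearts (0.52, unadjusted p = 0.0113), without overlap, and rose by 1.53 in TAC hearts (adjusted p = 0.000918, and 1.45 with adjusted p = 0.00269 without TUDCA-TAC 1). Of 18 complement and acute phase genes, Cfb, of the alternative pathway, had 0.81 (unadjusted p = 0.0118), with TUDCA-Sham 1 inside the Veh-Sham range and 1 Veh-Sham array that detected it, and 0.53 (unadjusted p = 0.0659) without TUDCA-Sham 4. Il1r1, the interleukin 1 receptor, had -0.40 (unadjusted p = 0.0426). Of 33 interferon-stimulated genes 1 was higher, Oasl1 (0.72, unadjusted p = 0.0185), which was detected on 1 Veh-Sham array and had 0.52 (unadjusted p = 0.0881) without TUDCA-Sham 1 and 0.49 (unadjusted p = 0.0941) without Veh-Sham 4.

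Macrophage markers were summed beside these genes. The 14 of 19 markers measured gave 17383 to 23073 in TUDCA-Sham hearts, with 23073 in TUDCA-Sham 4, against 17461 to 18295 in Veh-Sham hearts, and 0 passed an unadjusted p of 0.05. Their median log2 fold change was 0.12, and 0.02 without TUDCA-Sham 4. The part of macrophage number in Ccl8, Btk and Cfb was not tested. Of T, NK and B cell markers, 2 of 20 were measured. Neutrophil markers, 5 of 11 measured, summed to 1097 to 1429 in TUDCA-Sham hearts, against 1024 to 1122 in Veh-Sham hearts.

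Adipocyte markers were highest in TUDCA-Sham 4. The 9 of 16 markers measured summed to 9465 to 24182 in TUDCA-Sham hearts, with 24182 in TUDCA-Sham 4, against 9519 to 10915 in Veh-Sham hearts. Adipoq (adiponectin) read 10.19, 12.14 and 9.44 in TUDCA-Sham hearts, against 9.36, 10.58 and 9.58 in Veh-Sham hearts, and Scd1, a desaturase of fatty acid synthesis that is also an adipocyte marker, read 11.60, 13.35 and 11.04 in TUDCA-Sham hearts, against 10.71, 11.00 and 11.08 in Veh-Sham hearts. Neither gene passed the test, with unadjusted p of 0.241 and 0.0709. The list's median was 0.57, and 0.27 without TUDCA-Sham 4. Lipe, hormone-sensitive lipase, was the marker at an unadjusted p under 0.05 (0.56, unadjusted p = 0.0221), and its groups overlapped. Of all genes, 1.37% were higher at that p. Erythrocyte markers, 5 of 12 measured, summed to 73268 to 81459 in TUDCA-Sham hearts, against 83226 to 84434 in Veh-Sham hearts, with 0 past the test.

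The genes past the DEG threshold in sham hearts were then read in TAC hearts. Of the 36 genes higher past the DEG threshold, 4 were higher and 4 lower past the same threshold in TUDCA-TAC against Veh-TAC hearts, where 4.98% of all genes were higher and 6.66% lower. Of the 22 lower genes, 3 were higher and 3 lower. Without TUDCA-TAC 1 the counts were 3 higher and 4 lower of the 36 and 3 higher and 3 lower of the 22, against 4.03% and 5.4% of all genes. The medians of these sets in TAC hearts were 0.01 and 0.04. The 7 genes that passed in the same direction in both were Acsm5, Cep131, Ciart and Dbp, higher, and Adamtsl2, Arntl and Rasl11a, lower, and without TUDCA-TAC 1 all but Ciart passed. Acsm5, of medium-chain fatty acid activation, had 0.59 in sham hearts and rose by 1.36 in TAC hearts (adjusted p = 0.00345, and 1.20 with adjusted p = 0.00695 without TUDCA-TAC 1). Rasl11a, a small GTPase gene, had -0.70 in sham hearts (-0.54 without Veh-Sham 4) and fell by 0.80 on the log2 scale in TAC hearts (adjusted p = 0.0151, and by 0.74 with adjusted p = 0.0395 without TUDCA-TAC 1).

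The response to TUDCA differed between TAC and sham hearts for 178 genes (2.14%) at an adjusted p under 0.05. Among the sham DEGs they were 5 of the 36 higher genes (Nox4, Btk, Dusp4, Cxcl13 and Zfp738) and 2 of the 22 lower genes (Srrm4 and Cep85). The sham values that chose these DEGs are part of the difference tested. That raises such counts, which support nothing by themselves. Without TUDCA-TAC 1, Cxcl13 and Zfp738 no longer passed. Srrm4 had -0.78 in sham hearts and rose by 0.71 in TAC hearts (adjusted p = 0.00741), a difference of 1.49 (adjusted p = 0.0118). Without TUDCA-TAC 1 these were 0.65 (adjusted p = 0.0185) and 1.43 (adjusted p = 0.0187). The count of 178 fell to between 11 and 70 on leaving out any 1 sham heart, namely 70 without TUDCA-Sham 1, 11 without TUDCA-Sham 4, 34 without TUDCA-Sham 6, 22 without Veh-Sham 3, 22 without Veh-Sham 4 and 12 without Veh-Sham 6. It was 94 without TUDCA-TAC 1. Nox4 and Srrm4 passed in each of these 7 fits, and no gene passed when both sham hearts numbered 4 were left out.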

How the data were processed

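Total RNA of 13 hearts was hybridised to Illumina MouseRef-8 v2 bead arrays. The authors deposited raw average intensity and a detection p-value for each probe, exported from GenomeStudio, and a separate table of normalized log2 values, which lay within 0.119 of log2 of the quantile normalized intensity. Intensities were background corrected by normexp from the detection p-values (offset 16), quantile normalized over 13 arrays and log2 transformed with limma 3.58.1 in R 4.3.3. A probe entered if it was detected (p under 0.05) on 3 arrays or more, and each gene was read from the probe with the highest mean. The probe table used here names only probes of the authors' normalized table, each detected on at least 8 arrays, so that this filter removed no named probe. Of 13557 probes kept, 11078 had 1 symbol, and 11075 of these were found in RefSeq, giving 8336 genes.

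limma was fitted to the means of the 4 groups over all hearts (9 residual and 3.3 prior degrees of freedom), with Benjamini-Hochberg adjustment over all genes and 2-sided p-values. The array test of the DEGs is not given in the sources used here. Their threshold (over 1.5-fold, unadjusted p under 0.05) was applied, and the Student t-test of the methods was an alternative. Intervals are 95% confidence intervals, and a bound ("at least") sets the detected group against the lowest signal detected on each array of the other. It bounds the ratio of the measured means without sampling error, so that the interval of a gene can reach below it. The script was tested on simulated data. Named genes were the 15 largest rises and falls among non-overlapping DEGs, genes the article names, and up to 2 each way per list at an unadjusted p under 0.05. Other list members, markers and the DEGs Acsm5, Cep131, Adamtsl2, Dusp4, Cxcl13 and Zfp738 were named after their values were seen. The gene lists and members were chosen with earlier results of these data known, and support nothing by themselves. The number of arrays limits the precision. Alternatives covered background correction, scaling, dim probes, probe choice, array weights, the hearts in the fit and replicate blocks. Probes with no symbol were left out of the gene counts.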

Additional observations from a re-analysis of the deposited data

Results flagged for a closer look

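In TUDCA-TAC hearts, 1 heart lay far from the other 3 for 2 clock genes. Nr1d1 read 10.57 in TUDCA-TAC 1, with 9.63, 9.73 and 9.73 in TUDCA-TAC 2, 3 and 4, so that the gap to the nearest heart was 0.888 of the range. Usp2 read 12.69 in TUDCA-TAC 1, with 12.09, 12.15 and 12.11 in the others, a gap of 0.903 of the range. Chance flags about 1 group in 20 in this way. The array of this heart had the lowest background of the series, and its part in these values was not tested. The heart also stood apart outside the clock. Acta1 read 14.44 in it, against 15.99 to 16.03 in the other TUDCA-TAC hearts and 13.34 to 14.47 in sham hearts. Nppb read 14.67, against 15.85 to 15.94 and 14.31 to 15.47. Col1a1 went the other way, at 12.31 against 10.70 to 11.61 in the other TUDCA-TAC hearts. How far this heart was loaded was not tested. Without TUDCA-TAC 1, Nr1d1 had 0.85 (adjusted p = 0.0207) and Usp2 0.67 (adjusted p = 0.0148) in TUDCA-TAC against Veh-TAC hearts.

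The response to TUDCA differed between TAC and sham hearts for 10 named genes at an adjusted p under 0.05 (limma), given as the TAC response minus the sham response on the log2 scale. Nox4 differed by -2.62, with -1.98 in TAC hearts and 0.64 in sham hearts. Mt2, a metallothionein gene, differed by -1.91, with -1.39 in TAC hearts and 0.52 in sham hearts. Col3a1 differed by -1.86, with -1.59 and 0.27, and Btk by -1.21, with -0.39 and 0.83. Eno2, a neuronal enolase gene, differed by -1.14, with -0.63 and 0.51. Cdkn1a, which encodes the cell cycle inhibitor p21, differed by -0.87, with -1.21 and -0.34, and Casp1 by -0.76, with -0.43 and 0.33. Srrm4 differed by 1.49, with 0.71 and -0.78, Cep85 by 1.19, with 0.56 and -0.64, and Ccl11 by 1.01, with 1.53 and 0.52. Without TUDCA-TAC 1, Col3a1 (adjusted p = 0.0571), Casp1 (adjusted p = 0.0618) and Ccl11 (adjusted p = 0.0701) no longer passed, and the others did (limma). With each of the 6 sham hearts and TUDCA-TAC 1 left out in turn, Nox4, Srrm4 and Mt2 passed each time. Many named genes were chosen by their sham values, which are part of this difference. Without both sham hearts numbered 4, no gene passed.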

How the results depend on the processing

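No gene passed an adjusted p of 0.05 between TUDCA-Sham and Veh-Sham hearts under any alternative, with 133 to 478 genes at an unadjusted p under 0.05. The Student t-test of the methods called 296 genes before and 0 after Benjamini-Hochberg adjustment. The 36 higher genes past the DEG threshold became 4 without background correction, 12 with an offset of 50, 4 in the authors' table, 16 among genes detected on all 13 arrays, 18 among those detected on all 6 sham arrays (fewer genes tested in both) and 16 with the t-test. The 22 lower genes became 2, 7, 2, 8, 10 and 9 under the same settings, 9 with median scaling and 39 without both hearts numbered 4. The 178 genes whose response differed between TAC and sham hearts became 278 without background correction, 277 in the authors' table, 892 with array weights, 40 with array background as a covariate and 0 without both hearts numbered 4. The 7 DEGs shared in direction with TAC hearts became 2 without background correction, 3 with an offset of 50, 2 in the authors' table and 17 with array weights. The causes were not tested. On leaving out 1 heart, the counts ranged over 38 to 65 higher, 25 to 43 lower, 11 to 94 differing and 6 to 13 shared. By heart, the higher genes were 65 without Veh-Sham 3, 59 without Veh-Sham 6, 58 without TUDCA-Sham 1 and 57 without TUDCA-Sham 6. The lower genes were 43 without TUDCA-Sham 6, 40 without Veh-Sham 6, 39 without TUDCA-Sham 4, 36 without TUDCA-Sham 1 and 34 without Veh-Sham 4, and the shared genes were 13 without TUDCA-Sham 4 and 11 without TUDCA-Sham 6. Of 35 named genes past the DEG threshold, 11 stayed past it with each sham heart left out. The clock list had 2 higher genes and 0 lower genes with the t-test, without TUDCA-Sham 1 or without Veh-Sham 3, and 5 to 7 higher genes and 1 lower gene otherwise. The settings without both hearts numbered 4, without TUDCA-TAC 1, on genes detected on all 6 sham arrays and of sham hearts alone with a block were chosen after seeing the data.

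Beside the heart numbers of the sample titles, which name hearts throughout, the labels number the biological replicates of each group from 1 to 3 in sham hearts, and the block uses these. They put TUDCA-Sham 1 with Veh-Sham 3, TUDCA-Sham 4 with Veh-Sham 4 and TUDCA-Sham 6 with Veh-Sham 6. Sham hearts of the same replicate number deviated together with correlations of 0.157, 0.302 and 0.007, not all above 0.1. The highest of all pairs was that of TUDCA-Sham 4 with Veh-Sham 4 (0.302). TUDCA-Sham 1 correlated best with Veh-Sham 6, of another replicate number (0.243). With 3 hearts a group, whose deviations sum to 0, these values cannot settle whether hearts of 1 number were handled together. With the replicate number as a block, 0 genes passed an adjusted p of 0.05, 43 were higher and 24 lower past the DEG threshold, 8 were shared with TAC hearts and 89 differed in response.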

Other observations

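The group means held 16.9% of the summed variance of the 8336 genes over the 6 sham hearts, and the first principal component, which held 34.9%, did not follow the groups. TUDCA-Sham 4 and Veh-Sham 4 had scores of 12.54 and 17.53 on it, and TUDCA-Sham 1, TUDCA-Sham 6, Veh-Sham 3 and Veh-Sham 6 had -13.44, 0.20, -6.69 and -10.14. The genes with the largest positive loading were Hp, Tmem45b, Cyp2f2, Fos, Pon1, Apoc1, Adipoq, Adig, Cdo1 and Car3. Hp, the acute phase gene of haptoglobin, read 7.46, 10.99 and 8.06 in TUDCA-Sham 1, 4 and 6, against 7.91, 9.17 and 7.72 in Veh-Sham 3, 4 and 6. Fos, an immediate early gene, read 6.37, 8.45 and 7.95 in TUDCA-Sham hearts, against 6.67, 9.56 and 8.53 in Veh-Sham hearts, with Veh-Sham 4 highest.

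Of 2479 kept probes with no symbol, 0 passed an adjusted p of 0.05, and 28 were higher and 24 lower in TUDCA-Sham hearts past the DEG threshold.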
